A study of Mus musculus with 24 samples.

Results

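The comparison described here set astrocytes that carried p53 R172H against astrocytes that lacked p53, both made from the same primary culture of male mouse cortex, labelled m1. Its members were the 3 libraries of the m1 R172H line and the 3 libraries of the m1 knockout (KO) line, 6 of the 24 RNA-seq libraries of the series. All 14427 genes of the deposited counts, from which low genes were already absent, were read in them. The other lines of the series carried Y202C or Y217C in the same culture, or the same 4 genotypes in a female culture labelled f1. The cells were C57BL/6 cortical astrocytes taken on postnatal day 1 and used at passages 10 to 15. They came from pups with a floxed and a deleted Trp53 allele, and Cre was given to both m1 lines to delete the floxed one. The KO line received a Cre and puromycin resistance lentivirus alone. The R172H line had first received a retrovirus that encoded the mutant mouse p53 with eGFP, had been sorted for eGFP, and was then given the same Cre virus and puromycin. The KO line therefore carried no retrovirus and had passed no sort. Each genotype was 1 line from pooled pups, and the replicates were separate thaws and platings of that line, so the tests below measure the spread between platings and not between animals. The mutant was overexpressed from a viral promoter rather than from the Trp53 locus.

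p53 is a transcription factor that stops the cell cycle or starts cell death after DNA damage. R172H is the mouse form of a frequent human mutation in the part of the protein that holds DNA. It removes binding to the usual p53 sites, and mutant p53 of this kind is known to sit at other genes through partner factors. Astrocytes support neurons, take up glutamate, and share many transcription factors with the neural progenitors they come from.

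Trp53, the gene that was deleted and put back in mutant form, was measured at 53.7, 50.7 and 48.2 CPM in the KO libraries and 2315, 2196 and 2349 CPM in the R172H libraries. Every R172H library lay far above every KO library (log2 fold change 5.49 ± 0.065 (SE), adjusted p = 2.8e-26), a rise of 45-fold. The gene (ENSMUSG00000059552, chr11:69580359-69591873, GRCm38) was counted as a whole, so reads of the introduced coding sequence and of what Cre left of the endogenous transcript cannot be told apart. Mdm2, the ligase that degrades p53 and is itself a p53 target, was at 67.3, 67.9 and 63.9 CPM in the KO libraries and 64.4, 61.1 and 64.3 CPM in the R172H libraries, and the libraries of the lines overlapped (log2 fold change -0.069 ± 0.061 (SE), adjusted p = 0.39). Mdm4, the related inhibitor, was at 50.6, 48.1 and 52.1 CPM in the KO libraries and 50.7, 50.8 and 46.4 CPM in the R172H libraries (log2 fold change -0.027 ± 0.09 (SE), adjusted p = 0.84). Total counts were 79267980 to 106463163 in R172H and 83264966 to 131836636 in KO. CPM are counts scaled to library size (counts per 1000000 after TMM scaling), and a gene is called higher, lower or changed where edgeR's quasi-likelihood test gave an adjusted p of 0.05 or less.

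The marker genes of mature astrocytes were sparse in both lines. Gfap, the astrocyte intermediate filament, was at 0.257 ± 0.0284 CPM in KO and 0.159 ± 0.0731 CPM in R172H (SD, n = 3), and S100b, a calcium-binding astrocyte protein, was at 0.217 ± 0.0264 CPM in KO and 0.208 ± 0.0629 CPM in R172H. Aqp4, the water channel of astrocyte endfeet, was at 0.145, 0.0874 and 0.107 CPM in KO and had no count in any R172H library. By contrast Gja1, the astrocyte gap junction protein connexin 43, was at 187 ± 3.17 CPM in KO and 182 ± 21.5 CPM in R172H (log2 fold change -0.043 ± 0.082 (SE), adjusted p = 0.71). Sox9, a transcription factor of astrocytes and their precursors, was at 151 ± 9.99 CPM in KO and 166 ± 7.27 CPM in R172H (log2 fold change 0.14 ± 0.069 (SE), adjusted p = 0.11). Col1a1, the type I collagen chain typical of fibroblasts, was at 17294 ± 1546 CPM in KO and 18264 ± 964 CPM in R172H (log2 fold change 0.079 ± 0.077 (SE), adjusted p = 0.44). Of the astrocyte genes given here, Gja1 and Sox9 were thus far above the others, and a large fibrillar collagen signal was found in both lines. The study assessed the purity of its isolated astrocytes by immunofluorescence for the GFAP protein. In these bulk libraries, fewer cells of a type and less RNA per cell cannot be told apart.

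Across all genes, 5872 of 14427 were called, which is 40.7%. Of these, 2916 were higher in R172H (20.2% of genes) and 2956 were lower (20.5%). Each list count below is to be read against these shares. Most of the differences were small. An absolute log2 fold change of 0.5 or less was found for 4011 of the called genes, or 68.3% of them. The large differences were mostly falls. Beyond an absolute log2 fold change of 0.5, 768 genes were higher (5.32%) and 1093 lower (7.58%). Beyond 1, 210 were higher (1.46%) and 567 lower (3.93%), and beyond 2, 42 genes were higher (0.291%) and 238 were lower (1.65%). The libraries of the lines did not overlap for 26.9% of genes higher and 26.1% of genes lower. The median log2 fold change over all genes was 0.0064.

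The called genes were spread unevenly over the chromosomes. On chromosome 14, 314 of 496 genes were lower and 9 were higher, with a median log2 fold change of -0.32. On chromosome 19 the balance was the other way, with 264 of 489 genes higher, 29 lower and a median of 0.23. Chromosomes 1, 2, 4 and 11 had medians of -0.20, -0.16, -0.12 and -0.11, and chromosomes 7, 6 and 9 had medians of 0.16, 0.13 and 0.11. On chromosome 14, all 6 bins of 20 Mb with at least 20 genes had medians between -0.37 and -0.29. The stretch from 80 to 100 Mb held fewer genes and was not read. All 10 such bins of chromosome 1 were also below 0 (-0.26 to -0.13), and the 3 bins of chromosome 19 were at 0.18 to 0.25. In the female culture, the R172H line against its own KO line had a median of 0.25 on chromosome 14 and 0.21 on chromosome 19. The other m1 mutants, set against the same m1 KO libraries, had medians of -0.29 (Y202C) and -0.022 (Y217C) on chromosome 14, and of 0.39 and 0.20 on chromosome 19. Chromosome copy number was not measured in these data, and its part in the result was not tested.

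**Figure D1:**
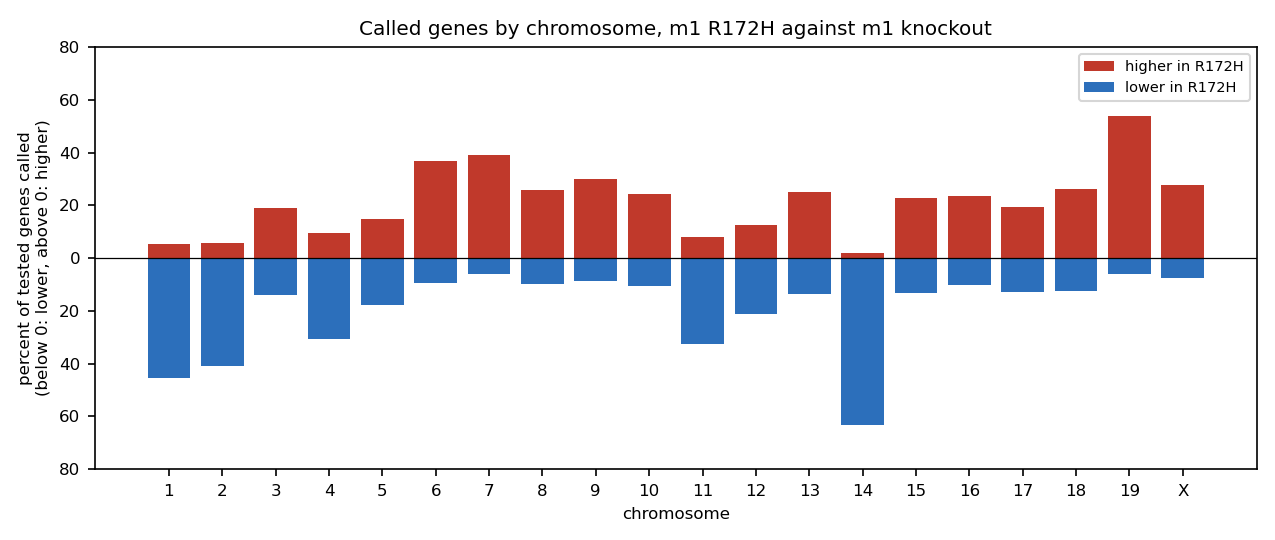
Percent of tested genes on each chromosome that were called higher (red, above 0) or lower (blue, below 0) in m1 R172H than in m1 KO. Chromosome 14 had 314 of 496 genes lower, and chromosome 19 had 264 of 489 genes higher.

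The largest changes were losses of transcription factors that pattern the developing brain. Of the 12 largest falls by the naming rule, 11 are reported here: Sall1, Sall3, Pou3f2, Nr2e1, Pou3f3, Qrfpr, Insm1, Ms4a4d, Nkx2-2, Sucnr1 and Shisa3. Of these, 7 encode transcription factors, and in each of the 11 no R172H library held more than 3 counts. Below, the promoters of 4 of the neural transcription factors that fell are shown because these genes carry the fall of neural factors described below. Each runs from 250 bases before to 50 bases after the transcription start, 5′ to 3′ on the gene's own strand, from RefSeq on GRCm38.p6, with CpG dinucleotides, the sites of DNA methylation in mammals, in capitals.
Pou3f3, chr1:42695518-42695817, plus strand: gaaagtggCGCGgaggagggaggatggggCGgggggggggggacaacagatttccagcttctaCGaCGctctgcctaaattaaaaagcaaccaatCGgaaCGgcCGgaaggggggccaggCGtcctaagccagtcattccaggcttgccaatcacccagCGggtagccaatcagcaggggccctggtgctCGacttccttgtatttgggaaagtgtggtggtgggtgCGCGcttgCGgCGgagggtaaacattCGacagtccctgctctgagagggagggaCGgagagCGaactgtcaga
Six3, chr17:85620584-85620883, plus strand: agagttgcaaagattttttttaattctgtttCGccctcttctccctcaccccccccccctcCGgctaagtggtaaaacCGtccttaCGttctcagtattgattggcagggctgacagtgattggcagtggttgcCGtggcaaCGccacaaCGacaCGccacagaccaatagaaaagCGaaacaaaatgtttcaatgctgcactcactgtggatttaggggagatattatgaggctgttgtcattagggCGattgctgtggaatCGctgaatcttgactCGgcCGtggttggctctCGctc
Sall1, chr8:89044113-89044412, minus strand: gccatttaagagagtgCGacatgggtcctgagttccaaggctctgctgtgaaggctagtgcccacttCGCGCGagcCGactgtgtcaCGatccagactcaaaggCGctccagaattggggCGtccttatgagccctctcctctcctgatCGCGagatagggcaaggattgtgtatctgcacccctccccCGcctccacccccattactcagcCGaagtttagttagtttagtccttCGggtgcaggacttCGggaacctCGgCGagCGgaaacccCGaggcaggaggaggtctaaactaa
Sox2, chr3:34649745-34650044, plus strand: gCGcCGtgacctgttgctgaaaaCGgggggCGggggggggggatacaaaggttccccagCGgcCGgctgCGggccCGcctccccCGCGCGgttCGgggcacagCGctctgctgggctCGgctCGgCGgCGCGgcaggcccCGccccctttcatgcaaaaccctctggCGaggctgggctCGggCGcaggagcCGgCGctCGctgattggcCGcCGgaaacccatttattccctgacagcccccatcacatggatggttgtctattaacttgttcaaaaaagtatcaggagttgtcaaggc
These windows hold 18, 14, 18 and 27 CpG in the same order. Of the 33 genes that lost their counts in R172H (defined below), 20 matched a promoter, and 12 of those held at least 15 CpG, searched as the letters CG. Their median was 17.5 CpG, and it was 21 over all tested genes with a promoter. Among the 10290 tested genes with a promoter in the same table, 71.2% held at least 15. Methylation was not measured in these data.

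Pou3f3, a POU-domain factor of cortical progenitors and neurons, was at 21.1, 22.7 and 25.2 CPM in the KO libraries and 0.0194, 0.0256 and 0 CPM in the R172H libraries. No R172H library held more than 3 counts, and the fall was at least 653-fold against a floor of 3 counts per library (adjusted p = 1.9e-20). Its partner Pou3f2, which acts with it in upper layer neurons, was at 2.4, 2.83 and 3.27 CPM in KO and had no count in any R172H library, at least 80.5-fold lower (adjusted p = 1.9e-11). Sall1, a zinc finger factor of neural progenitors, was at 7.46, 8.36 and 8.39 CPM in KO and 0 in every R172H library, at least 229-fold lower (adjusted p = 2.1e-13). Its relative Sall3 was at 5.14, 4.97 and 5.38 CPM in KO and likewise had no count in R172H, at least 146-fold lower (adjusted p = 2.5e-14). All KO libraries held these genes, and in R172H the counts of Pou3f3 were 2, 2 and 0 while the other 3 genes had none.

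Six3, a homeobox factor of the anterior forebrain, was at 19, 20.9 and 22.1 CPM in the KO libraries and 0.116, 0.102 and 0.115 CPM in the R172H libraries (log2 fold change -7.51 ± 0.17 (SE), adjusted p = 1.9e-20). A few R172H reads remained in each library, which leaves Six3 measurable there. Without a stated counting strand, its reads cannot be separated from those of the overlapping antisense transcript Six3os1. Lhx2, a LIM homeobox factor that specifies the cortex, was at 3.6, 3.24 and 3.17 CPM in the KO libraries and 0.0387, 0.0256 and 0.0764 CPM in the R172H libraries (log2 fold change -6.13 ± 0.27 (SE), adjusted p = 1.6e-14). Sox2, the factor that maintains neural stem cells, was at 22.4, 25.3 and 25.8 CPM in the KO libraries and 1.8, 1.73 and 2.05 CPM in the R172H libraries, a fall of 13.2-fold (log2 fold change -3.72 ± 0.087 (SE), adjusted p = 9.5e-19). Pax6, a paired-box factor of radial glia, was at 2.86, 2.75 and 2.89 CPM in the KO libraries and 0.184, 0.5 and 0.242 CPM in the R172H libraries (log2 fold change -3.23 ± 0.25 (SE), adjusted p = 3.2e-10). Not every forebrain factor fell. Emx2, a cortical patterning factor, was at 22.5, 22.5 and 20.1 CPM in the KO libraries and 25.5, 24.7 and 23.8 CPM in the R172H libraries and was slightly higher in R172H (log2 fold change 0.19 ± 0.065 (SE), adjusted p = 0.026), a call lost without R172H replicate 1 or 2 or KO replicate 3.

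Nr2e1, the orphan nuclear receptor that keeps neural stem cells dividing, was at 2.3, 2.33 and 2.06 CPM in KO and had no count in R172H, at least 63.2-fold lower (adjusted p = 8e-12). Nkx2-2, a homeobox factor of ventral progenitors and oligodendrocytes, was at 1.91, 1.84 and 1.87 CPM in KO and at 0, 0.0128 and 0 CPM in R172H, at least 53.2-fold lower (adjusted p = 2.7e-11). Insm1, a zinc finger factor of neurogenic progenitors, was at 0.834, 0.946 and 1.1 CPM in KO and had no count in R172H, at least 27.3-fold lower (adjusted p = 2.7e-08). All KO libraries lay above all R172H libraries for each of these genes. Reads of Nkx2-2 cannot be separated from those of its antisense transcript Nkx2-2os.

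Over the whole table, 33 genes had at least 10 counts in every KO library and at most 3 in every R172H library (0.229% of genes), and 0 genes met the same rule in the other direction. These counts are for genes in this table, which holds only genes above 1 CPM in 2 libraries. Many of the 33 averaged below 1 CPM in m1 KO and were in the table through other lines. Aqp4, for example, averaged 0.113 CPM in m1 KO, 1.77 CPM in m1 Y202C and 8.06 CPM in m1 Y217C. The presence of such genes in the other lines, given next, was thus partly set by that limit. In m1 Y202C and m1 Y217C, which share the m1 KO line as their control, 28 and 32 of the 33 had at least 10 counts in every library. In f1 KO, 5 of the 33 did, and 8 had at most 3 counts in every library. In the f1 R172H, Y202C and Y217C lines 7, 4 and 2 had at least 10, and 21, 23 and 23 had at most 3. Pou3f3 averaged 116 CPM in m1 Y202C and 207 CPM in m1 Y217C, above the m1 KO line, and 1.12 CPM in f1 KO. Sox2 averaged 149.8 and 193 CPM in the other m1 mutants. In f1, Sox2 averaged 1.59 CPM in KO, 0.937 CPM in R172H, 0.0124 CPM in Y202C and 0 CPM in Y217C. Six3 averaged 127 and 186 CPM in those m1 mutants and 0.675 CPM in f1 KO. Among the means of the 4 m1 lines, R172H was the lowest for Sox2, Pou3f3, Six3, Sall1, Lhx2, Pou3f2 and Pax6. The fall of Sox2 against KO was larger in m1 than in f1 (log2 fold change -0.77 in f1, difference -2.95, adjusted p = 1.8e-13). For Pou3f3 and Six3 the difference between the cultures did not pass the threshold (adjusted p = 0.58 and 0.14), where Pou3f3 had a mean of 0 CPM and Six3 of 0.0112 CPM in f1 R172H. Both also fell in f1 R172H against f1 KO (fitted log2 fold changes -9.63 and -5.64, adjusted p = 4.6e-14 and 1.2e-11). Sall1, Sall3, Lhx2, Pou3f2, Nr2e1 and Insm1 were called lower in f1 as well, from low f1 KO levels, whereas Nkx2-2 was not called there (adjusted p = 0.14). The fall of these factors was thus not particular to m1.

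**Figure D2:**
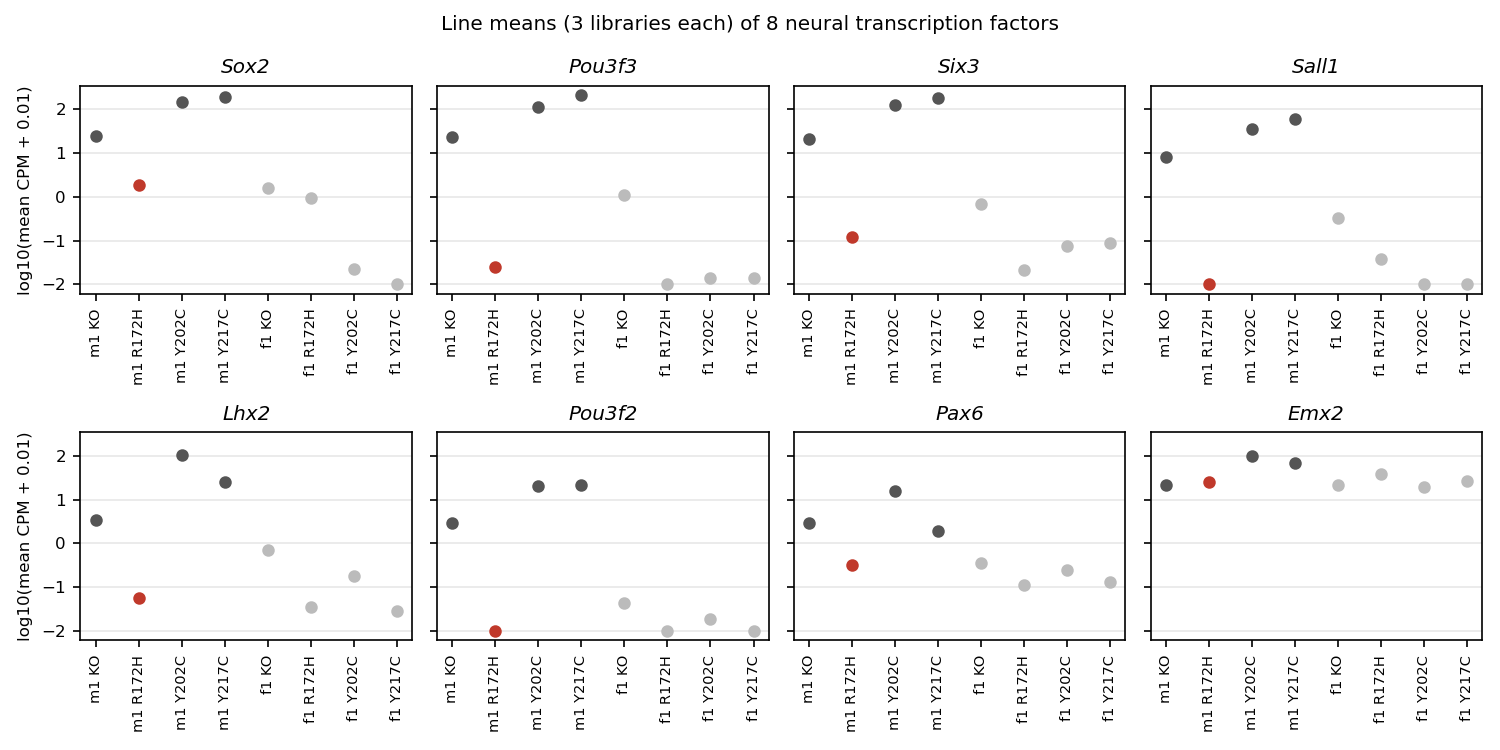
Mean level of 8 neural transcription factors in the 8 lines, as log10(CPM + 0.01), 1 point per line of 3 libraries, with m1 R172H in red, the other m1 lines in dark grey and the f1 lines in light grey. Sox2 averaged 24.5 CPM in m1 KO and 1.86 CPM in m1 R172H, and Emx2 averaged 21.7 and 24.7 CPM.

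Other members of the astrocyte and neural progenitor list fell too. Of 35 members tested, 3 were higher and 20 lower, against 20.2% and 20.5% of all genes, and the median log2 fold change was -0.61 against 0.0064 for all genes. Slc1a3, the glutamate transporter GLAST, was at 11.5, 12.2 and 12.9 CPM in the KO libraries and 4.97, 6.33 and 5.74 CPM in the R172H libraries (log2 fold change -1.11 ± 0.11 (SE), adjusted p = 3.6e-08). Nes, which encodes the progenitor filament nestin, was at 449, 391 and 407 CPM in the KO libraries and 268, 196 and 225 CPM in the R172H libraries (log2 fold change -0.85 ± 0.10 (SE), adjusted p = 7e-07). Aldh1l1, a folate enzyme used as an astrocyte marker, was low in both lines and fell further (0.508, 0.723 and 0.655 CPM in KO, 0.0872, 0.0512 and 0.0255 CPM in R172H, adjusted p = 4e-08). A large rise went against the list: Ptprz1, a receptor phosphatase of progenitors and glia, was at 18.5, 20.3 and 20.2 CPM in the KO libraries and 127, 137 and 121 CPM in the R172H libraries (log2 fold change 2.70 ± 0.10 (SE), adjusted p = 4.5e-16). In f1, Ptprz1 moved the other way (log2 fold change -3.19, difference 5.89, adjusted p = 6.4e-20). Id3 and Lcat were the other members that rose; the call of Id3 was lost without KO replicate 1, 2 or 3 and without R172H replicate 2 or 3, and that of Lcat without KO replicate 2, and without KO replicate 2 the number of members that rose was 1 in place of 3.

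Homeobox genes were split. Of 32 tested, 8 were higher and 17 lower, with a median of -0.36, or -0.28 with members at 3 counts or fewer set to their bound, and -0.16 after subtracting each gene's chromosome median. Hoxa4, a factor of the posterior axis, was barely counted in KO (0.0242, 0.0477 and 0.107 CPM) and had no count in R172H (adjusted p = 0.005).

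Steep falls were also found among membrane and secreted proteins, which are given here from the named genes. Igfbp3, a secreted binding protein for insulin-like growth factors, was at 23.7, 25.6 and 25.1 CPM in the KO libraries and 0.126, 0.32 and 0.28 CPM in the R172H libraries (log2 fold change -6.73 ± 0.21 (SE), adjusted p = 2.5e-17). Cdh5, the cadherin of endothelial junctions, was at 35.5, 31.8 and 32.7 CPM in the KO libraries and 0.707, 0.461 and 0.509 CPM in the R172H libraries (log2 fold change -5.87 ± 0.29 (SE), adjusted p = 8.2e-14). Grem1, a secreted BMP antagonist, was at 37.7, 37.5 and 42.9 CPM in the KO libraries and 1.86, 2.4 and 2.01 CPM in the R172H libraries (log2 fold change -4.24 ± 0.12 (SE), adjusted p = 9.5e-19). Qrfpr, a neuropeptide receptor, was at 7.11, 6.77 and 7.09 CPM in KO and 0, 0 and 0.0255 CPM in R172H, at least 198-fold lower (adjusted p = 8.2e-14). Sucnr1, the succinate receptor, Ms4a4d and Shisa3 had no count in R172H and were at least 9.76-fold, 19-fold and 8.16-fold lower.

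**Figure D3:**
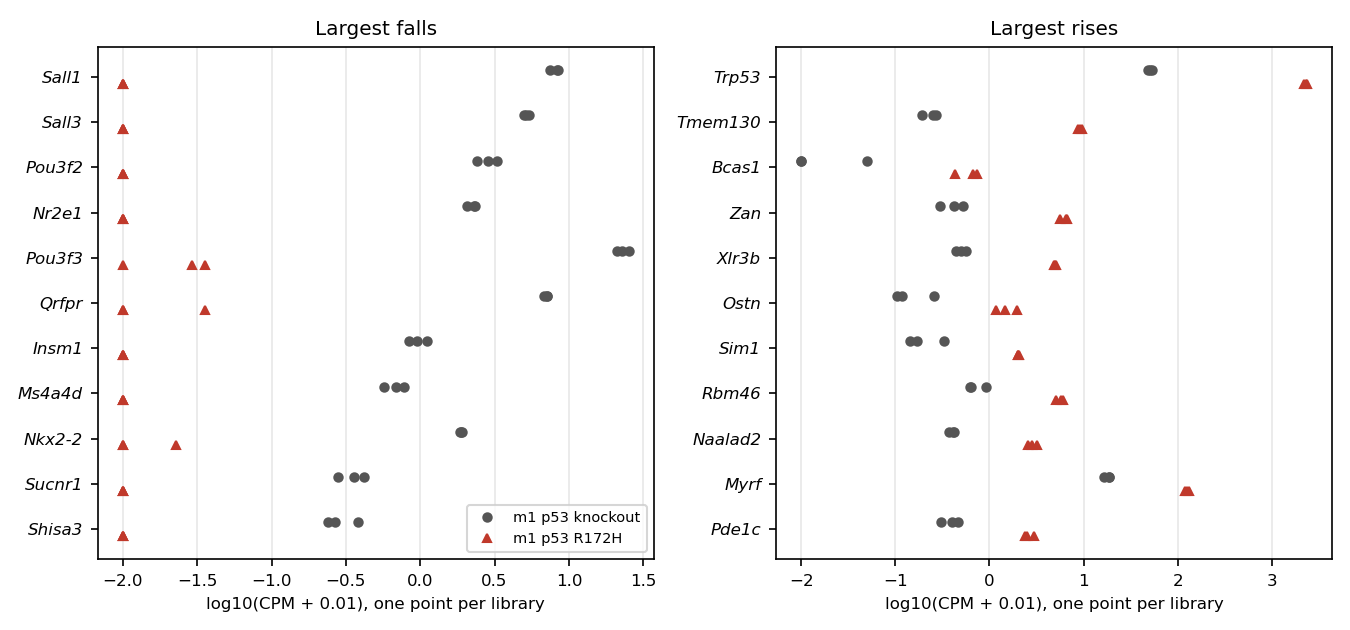
The largest falls (left) and rises (right), 11 genes each, as log10(CPM + 0.01) with 1 point per library, KO as grey circles and R172H as red triangles, and a library without counts at -2. The R172H libraries lie apart from the KO libraries for each gene shown, and 8 of the falls had no count in any R172H library.

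Of the 12 largest rises, 11 are reported here: Trp53, Tmem130, Bcas1, Zan, Xlr3b, Ostn, Sim1, Rbm46, Naalad2, Myrf and Pde1c. Tmem130, a membrane protein, was at 0.242, 0.262 and 0.183 CPM in the KO libraries and 8.68, 9.56 and 9.18 CPM in the R172H libraries (log2 fold change 5.32 ± 0.18 (SE), adjusted p = 1.1e-16). Bcas1, a gene of newly formed oligodendrocytes, was at 0, 0.0397 and 0 CPM in the KO libraries and 0.726, 0.666 and 0.42 CPM in the R172H libraries (log2 fold change 5.25 ± 0.65 (SE), adjusted p = 8.5e-07). Zan, which encodes a sperm protein, was at 0.29, 0.413 and 0.51 CPM in the KO libraries and 6.7, 6.43 and 5.59 CPM in the R172H libraries (log2 fold change 3.91 ± 0.20 (SE), adjusted p = 2.2e-13); its exons overlap those of Ephb4 on the other strand, and without a stated counting strand the reads of both genes cannot be told apart.

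The counts of these 3 genes moved with those of Trp53 across the mutant lines of the series. Tmem130 had 3.97 counts per 1000 Trp53 counts in m1 R172H and 4.49 in m1 KO, where 77 counts in all were recorded, and 2.30 in f1 KO. In the other mutant lines the same ratio was 3.27 in m1 Y202C, 3.96 in m1 Y217C, 4.14 in f1 R172H, 3.12 in f1 Y202C and 3.55 in f1 Y217C, while Trp53 itself ranged from 593 CPM in f1 Y202C to 3709 CPM in f1 Y217C. Bcas1 had 0.269 counts per 1000 Trp53 counts in m1 R172H and 0.284 to 0.416 in the other 5 mutant lines. Zan had 2.75 in m1 R172H, 2.13 to 3.55 in the other mutant lines, and 8.34 in m1 KO. The share of these genes relative to Trp53 thus varied less over the mutant lines than Trp53 itself. Whether their reads came from their own loci was not tested.

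Myrf, the transcription factor that drives myelin genes in oligodendrocytes, rose from a level that was already clear, 16.6, 18.7 and 18.5 CPM in KO, to 126, 132 and 120.3 CPM in R172H, a 7.03-fold change (log2 fold change 2.81 ± 0.085 (SE), adjusted p = 8.1e-18). The effect in f1 was opposite (log2 fold change -0.50, difference 3.32, adjusted p = 3.4e-17). Mbp, a myelin protein, was also higher (6.43, 7.41 and 7.64 CPM in the KO libraries and 11.9, 13.5 and 13.4 CPM in the R172H libraries; log2 fold change 0.85 ± 0.10 (SE), adjusted p = 7.1e-07), whereas Cnp, a myelin enzyme, was lower (log2 fold change -0.39 ± 0.11 (SE), adjusted p = 0.007). Pdgfra, the PDGF receptor of oligodendrocyte precursors and fibroblasts, fell from 19.5, 20.6 and 20.4 CPM to 2.75, 3.43 and 3.32 CPM (log2 fold change -2.68 ± 0.13 (SE), adjusted p = 6.3e-14). The oligodendrocyte list had 6 of its 15 genes in the table, and its defining factors Olig1, Olig2 and Sox10 were not among them.

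Among the remaining rises, Sim1, a helix-loop-helix factor of the hypothalamus, was at 0.133, 0.318 and 0.16 CPM in the KO libraries and 1.99, 2.05 and 2.03 CPM in the R172H libraries (log2 fold change 3.26 ± 0.28 (SE), adjusted p = 2.2e-08). Rbm46, a germ cell RNA-binding protein, was at 0.628, 0.906 and 0.617 CPM in the KO libraries and 5.15, 5.74 and 6.01 CPM in the R172H libraries (log2 fold change 2.96 ± 0.36 (SE), adjusted p = 5.5e-07). Ostn, a secreted peptide of bone and muscle, was at 0.109, 0.0954 and 0.251 CPM in the KO libraries and 1.16, 1.47 and 1.95 CPM in the R172H libraries (log2 fold change 3.27 ± 0.30 (SE), adjusted p = 5.3e-09). Naalad2, a peptidase, and Pde1c, a cyclic nucleotide phosphodiesterase, rose with log2 fold changes of 2.87 and 2.78 (adjusted p = 1.6e-10 and 1.5e-09). Xlr3b, an imprinted X-linked gene, rose with a log2 fold change of 3.31 (adjusted p = 2.3e-07), but it belongs to a family of near-identical copies, so its counts are uncertain. Sim1, Rbm46 and Xlr3b moved the other way in f1, with differences between the cultures of 4.61, 5.76 and 7.52. For Xlr3b, f1 KO averaged 0.0279 CPM, below the level of 3 counts per library (0.0323 CPM), and f1 R172H had no count. Its direction in f1 thus rests on very few counts, and the fitted size depends on the prior count. Rbm46 averaged 0.228 CPM in f1 KO and 0.0274 CPM in f1 R172H.

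**Figure D4:**
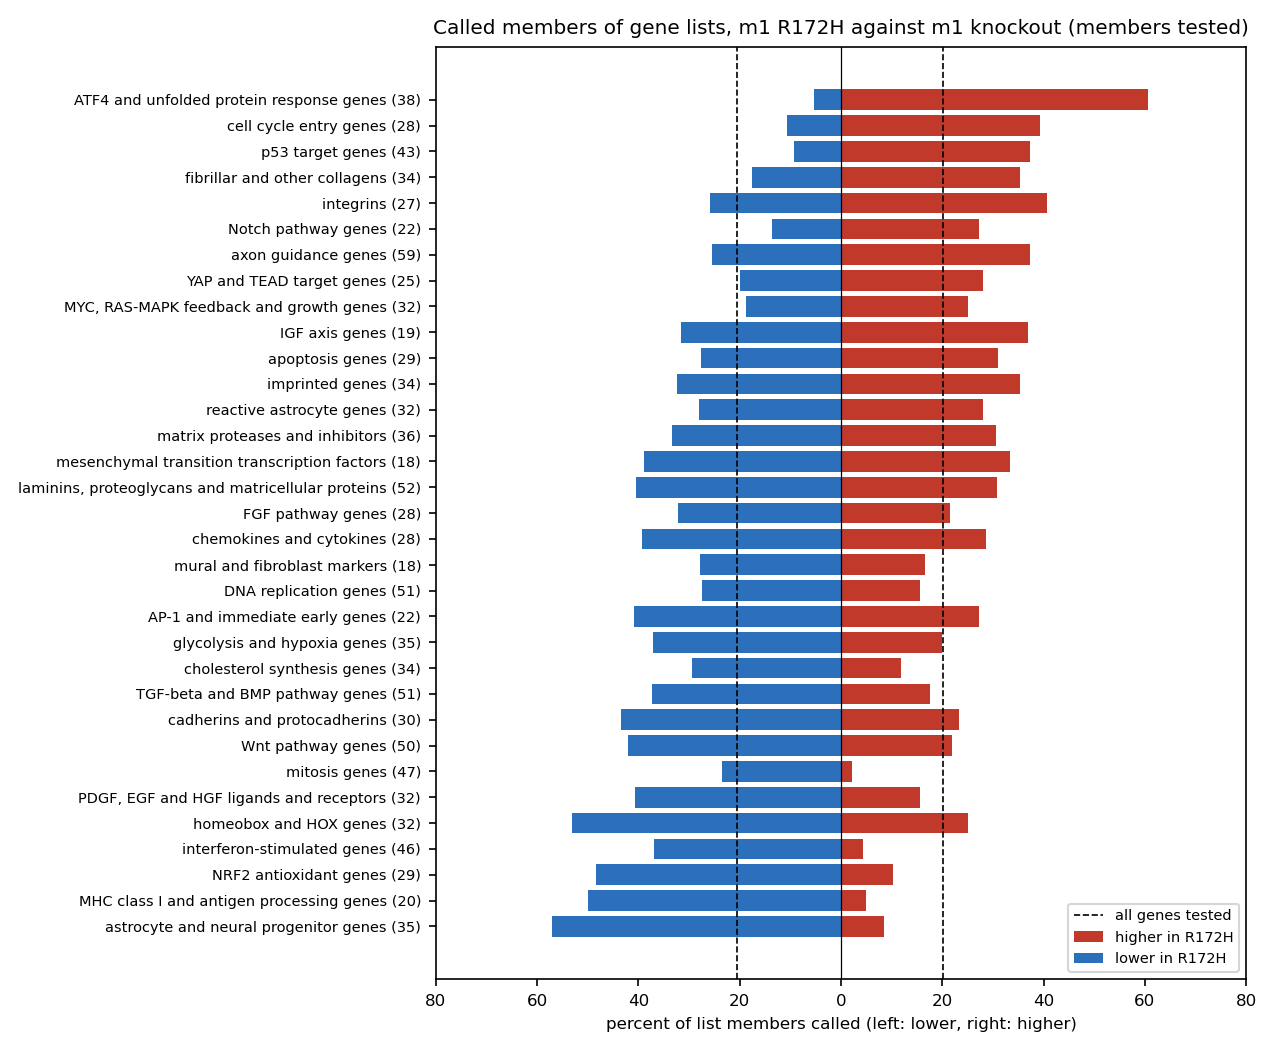
Percent of the tested members of each gene list (number tested in brackets, lists with at least 15) that were called higher (right, red) or lower (left, blue) in m1 R172H than in m1 KO, with dashed lines at 20.2% and 20.5%, the shares of all genes. The list of ATF4 and unfolded protein response genes had 23 of 38 members higher, and the astrocyte and neural progenitor list had 20 of 35 lower.

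Among canonical p53 target genes, more were higher than lower in R172H, and most did not pass the threshold. Of 43 tested, 16 were higher and 4 lower, with a median log2 fold change of 0.15. The number lower was 2 without R172H replicate 1 or 2 or without KO replicate 1. Perp, a junction and death gene, was at 0.894, 1.03 and 1.05 CPM in the KO libraries and 3.56, 4.55 and 3.8 CPM in the R172H libraries (log2 fold change 1.99 ± 0.14 (SE), adjusted p = 4.2e-11), and in f1 it changed less (difference 1.72, adjusted p = 1.9e-08). Pmaip1, which encodes the death protein Noxa, was at 14.7, 13.5 and 13 CPM in the KO libraries and 23.6, 27.6 and 25.9 CPM in the R172H libraries (log2 fold change 0.90 ± 0.11 (SE), adjusted p = 4.4e-07), whereas in f1 it fell (log2 fold change -3.39, difference 4.29, adjusted p = 1.1e-16). Bbc3, which encodes Puma, was at 12, 13.1 and 12.5 CPM in the KO libraries and 18.2, 21.1 and 19.6 CPM in the R172H libraries (log2 fold change 0.65 ± 0.08 (SE), adjusted p = 7.6e-07), and the difference from f1 did not pass the threshold (adjusted p = 0.084). Cdkn1a, the p21 cell cycle inhibitor, was at 18.5, 21.1 and 21.4 CPM in the KO libraries and 24.1, 28.6 and 28.9 CPM in the R172H libraries (log2 fold change 0.42 ± 0.076 (SE), adjusted p = 0.00013; difference from f1 0.25, adjusted p = 0.048). Mdm2 and Bax, a pore-forming death protein, were not called (Bax log2 fold change 0.075, adjusted p = 0.43). Gdf15 passed the threshold (log2 fold change 0.83, adjusted p = 0.036), and lost the call whichever m1 library was left out. Several of the risen members, among them Sesn2, Ddit4 and Gdf15, are known targets of stress pathways as well.

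Genes of the ATF4 and unfolded protein response had the largest excess of higher over lower members among the lists with at least 15 genes tested. ATF4 is a factor that raises amino acid synthesis and transport under stress. Of 38 members, 23 were higher and 2 lower, with a median of 0.34, or 0.33 after subtracting each gene's chromosome median; the number lower was 1 without R172H replicate 2 or without any 1 KO library. Asns, which makes asparagine, was at 213, 237 and 237 CPM in the KO libraries and 356, 377 and 380.1 CPM in the R172H libraries (log2 fold change 0.70 ± 0.048 (SE), adjusted p = 5.4e-11). Cth, which makes cysteine, was at 18.4, 20.8 and 22.5 CPM in the KO libraries and 36.7, 41.8 and 38.6 CPM in the R172H libraries (log2 fold change 0.92 ± 0.1 (SE), adjusted p = 1e-07). Psat1, of serine synthesis, was at 404, 411 and 396 CPM in the KO libraries and 622, 602 and 601 CPM in the R172H libraries (log2 fold change 0.59 ± 0.04 (SE), adjusted p = 3.1e-11). The amino acid carriers Slc7a5, Slc3a2 and Slc7a11 rose by log2 fold changes of 0.68, 0.68 and 0.64. Ddit3, the stress factor CHOP, rose by 0.47 and Atf4 itself by 0.14 (adjusted p = 3e-05 and 0.02). The members that fell were Hspa5, the endoplasmic reticulum chaperone BiP (log2 fold change -0.26 ± 0.051 (SE), adjusted p = 0.00032), and Creld2 (log2 fold change -0.21 ± 0.082 (SE), adjusted p = 0.04). The call of Creld2 was lost without R172H replicate 2 or any 1 KO library, and that of Atf4 without R172H replicate 2 or KO replicate 1 or 3. Asns did not rise in f1 (log2 fold change -0.12; difference 0.81, adjusted p = 3.6e-10).

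Some interferon-stimulated genes, which restrict viruses, were lower in R172H than in KO, and most members were not called. Of 46 tested, 2 were higher and 17 lower, with a median of -0.48, or -0.43 with members at 3 counts or fewer set to their bound. The summed level of the list overlapped between the lines, at 450.3 to 539 CPM in KO and 452 to 554 CPM in R172H. Isg15, a ubiquitin-like effector, was at 3.41, 4.83 and 5.42 CPM in the KO libraries and 1.44, 2.86 and 1.89 CPM in the R172H libraries (log2 fold change -1.18 ± 0.23 (SE), adjusted p = 0.00028). Ifit1, which binds viral RNA, was at 4.68, 6.8 and 7.74 CPM in the KO libraries and 2.56, 4.73 and 2.94 CPM in the R172H libraries (log2 fold change -0.94 ± 0.22 (SE), adjusted p = 0.0017). Trim30a was at 0.242, 0.596 and 0.731 CPM in the KO libraries and 0.00969, 0.0512 and 0.0382 CPM in the R172H libraries (log2 fold change -4.09 ± 0.68 (SE), adjusted p = 4e-05). Bst2 and Ifit2 rose (log2 fold change 0.53 ± 0.18 (SE), adjusted p = 0.021 for Bst2), and the number that rose was 1 without R172H replicate 2 or without any 1 KO library, with Bst2 lost without R172H replicate 2 or KO replicate 1 or 2 and Ifit2 without KO replicate 3. Irf7, which drives the response, was not called (log2 fold change -0.56, adjusted p = 0.2), although it passed the threshold as lower without KO replicate 1.

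The members that fell moved the other way in the female culture. All 17 members that were lower in m1 were higher in f1, with the difference between the cultures past the threshold for each. In f1, 45 of the 46 were higher in R172H than in KO and 1 was lower, with a median of 5.72, where 34.4% of all genes were higher and 35.3% lower. The table held only genes above 1 CPM in 2 libraries, and a member such as Oasl1 met this limit only in f1 R172H. Oasl1 averaged 8.51 CPM there, 0.143 CPM in f1 KO and 0.195 CPM in m1 KO. The f1 counts and median, and the reversal of such members, were thus partly set by that limit. For Isg15 the difference between the effects in m1 and f1 was -7.01 (adjusted p = 2.4e-15), and for Ifit1 it was -6.66 (adjusted p = 6.4e-15). MHC class I and antigen processing genes went the same way in f1: in m1 1 of 20 was higher and 10 were lower, and in f1 17 were higher and 1 lower. The number lower in m1 was 6 without R172H replicate 1 or KO replicate 2, and the number higher ran from 0 without R172H replicate 3 to 3 without R172H replicate 1. After subtracting each gene's chromosome median the m1 median of this list was 0.0019 in place of -0.17. Tap1, a peptide transporter, was at 2.55, 3.43 and 3.77 CPM in the KO libraries and 0.959, 1.26 and 1.01 CPM in the R172H libraries (log2 fold change -1.62 ± 0.19 (SE), adjusted p = 5.2e-07; difference from f1 -5.48, adjusted p = 5e-15). H2-D1, a class I heavy chain of a family with similar members, was at 48.3, 50.5 and 53.5 CPM in the KO libraries and 29.7, 33.2 and 31.5 CPM in the R172H libraries (log2 fold change -0.69 ± 0.10 (SE), adjusted p = 6.8e-06).

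Chemokines and cytokines were split in m1. Of 28 tested, 8 were higher and 11 lower, with a median of -0.045. Ccl2, which draws monocytes, was at 57.4, 59.3 and 57.2 CPM in the KO libraries and 10.9, 11 and 9.71 CPM in the R172H libraries (log2 fold change -2.46 ± 0.11 (SE), adjusted p = 2.8e-14), and the effect differed from that in f1 (log2 fold change 3.98; difference -6.44, adjusted p = 1.2e-19). Il33, an alarm cytokine of glia, was at 9.68, 12.1 and 14.4 CPM in the KO libraries and 0.484, 1.29 and 1.2 CPM in the R172H libraries (log2 fold change -3.65 ± 0.21 (SE), adjusted p = 1.6e-12). Cxcl14 was at 4.91, 6.23 and 7.3 CPM in the KO libraries and 0.668, 0.781 and 1.02 CPM in the R172H libraries (log2 fold change -2.93 ± 0.16 (SE), adjusted p = 5.2e-13). Cxcl10, an interferon-induced chemokine, was at 2.45, 2.66 and 2.6 CPM in the KO libraries and 0.697, 0.897 and 0.777 CPM in the R172H libraries (log2 fold change -1.71 ± 0.15 (SE), adjusted p = 5.3e-09). Reactive astrocyte genes as a list were even, with 9 of 32 higher and 9 lower. Serpina3n, a protease inhibitor of reactive astrocytes, had 0 counts in every KO library and 4, 11 and 4 counts in the R172H libraries (adjusted p = 0.00094).

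**Figure D5:**
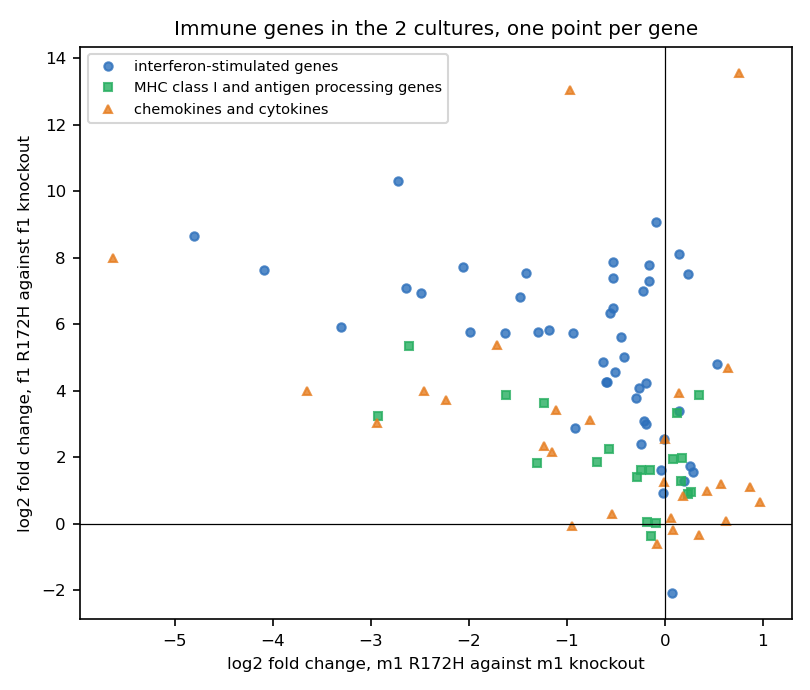
Log2 fold change of R172H against KO in the m1 culture (horizontal) and in the f1 culture (vertical) for interferon-stimulated, MHC class I and chemokine genes (blue circles, green squares and orange triangles), 1 point per gene. The median of the interferon-stimulated genes was -0.48 in m1 and 5.72 in f1, with members included that were in the table only through f1 R172H.

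In the Wnt pathway, 11 of 50 genes were higher and 21 lower, with a median of -0.14. Wnt5a, a ligand of the non-canonical branch, was at 36.7, 32.5 and 34.9 CPM in the KO libraries and 18, 16.2 and 17.2 CPM in the R172H libraries, with every R172H library below every KO library (log2 fold change -1.02 ± 0.067 (SE), adjusted p = 2.2e-11). The gene lies on chromosome 14, and its fall was -0.70 after subtracting that chromosome's median. In f1 it rose (log2 fold change 1.77), and the difference between the cultures was -2.79 (adjusted p = 1.8e-17). No chromosome median was subtracted from these values, and that of chromosome 14 was -0.32 in m1 and 0.25 in f1. The secreted inhibitors Wif1, Sfrp4 and Frzb fell with log2 fold changes of -3.46, -1.93 and -1.92 (adjusted p = 2.4e-09, 7.6e-09 and 2.8e-05). Nkd1, an intracellular brake that Wnt signals induce, rose from 1.26, 2.58 and 2.28 CPM to 7.75, 12.9 and 10.9 CPM (log2 fold change 2.34 ± 0.21 (SE), adjusted p = 3.9e-09).

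Of 51 TGF-beta and BMP genes, 19 were lower (37.3%) and 9 higher (17.6%), against 20.5% and 20.2% of all genes, although their median was -0.0066. Bmp4, a ligand that steers progenitors to astrocytes, was at 23.7, 29.2 and 28.7 CPM in the KO libraries and 8.06, 11.5 and 9.64 CPM in the R172H libraries (log2 fold change -1.49 ± 0.12 (SE), adjusted p = 4.2e-10); it also lies on chromosome 14, and its value relative to that chromosome was -1.17. Ltbp2, a matrix protein related to the TGF-beta binding proteins, was at 66.5, 64.4 and 73.4 CPM in the KO libraries and 17.2, 20.7 and 20.5 CPM in the R172H libraries (log2 fold change -1.81 ± 0.076 (SE), adjusted p = 5.6e-15), and rose in f1 (log2 fold change 2.46, difference -4.27, adjusted p = 8.7e-20). Gdf6, a BMP ligand, was close to 0 in R172H (0.749, 0.787 and 0.602 CPM in KO and 0.0194, 0.0512 and 0.0127 CPM in R172H, adjusted p = 5e-07). Bmp4, Gdf6 and the antagonist Grem1 thus fell in the same line, while 9 members of the list rose and 23 were not called.

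Growth factor genes changed in both directions. Of 32 PDGF, EGF and HGF ligands and receptors, 5 were higher and 13 lower, with a median of -0.15. Pdgfb, a ligand that drives glial precursors, was at 12.9, 12.2 and 13.5 CPM in the KO libraries and 3.34, 3.25 and 3.57 CPM in the R172H libraries (log2 fold change -1.92 ± 0.11 (SE), adjusted p = 1.4e-12). Ereg, a ligand of the EGF receptor, was at 17.5, 15.6 and 15.4 CPM in the KO libraries and 6.61, 6.06 and 6.29 CPM in the R172H libraries (log2 fold change -1.35 ± 0.098 (SE), adjusted p = 1.1e-10). Flt4, a VEGF receptor, was at 28.3, 27.8 and 29.3 CPM in the KO libraries and 9.05, 8.26 and 8.74 CPM in the R172H libraries (log2 fold change -1.71 ± 0.073 (SE), adjusted p = 6.2e-15). In the IGF axis, 7 of 19 were higher and 6 lower. Igf2, the fetal growth ligand, was at 4.54, 7.64 and 7 CPM in the KO libraries and 17.1, 27.6 and 22.7 CPM in the R172H libraries (log2 fold change 1.80 ± 0.16 (SE), adjusted p = 2.4e-09), and Igfbp5, a secreted binding protein, was at 212, 263 and 281 CPM in the KO libraries and 67.8, 81.9 and 81.1 CPM in the R172H libraries (log2 fold change -1.71 ± 0.091 (SE), adjusted p = 4.1e-13).

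FGF genes numbered 6 higher and 9 lower of 28 (21.4% and 32.1%, against 20.2% and 20.5% of all genes). The number higher was 2 when replicate 1 of both m1 lines was left out, an alternative chosen after the data were seen. Fgf18 was at 2.86, 3.96 and 4.24 CPM in the KO libraries and 1.33, 1.31 and 1.76 CPM in the R172H libraries (log2 fold change -1.34 ± 0.20 (SE), adjusted p = 8.1e-06). Spry1 and Dusp4, which both restrain signalling downstream of receptor kinases, moved apart: Spry1 was at 23.5, 24.7 and 24.2 CPM in the KO libraries and 47.6, 49 and 48.2 CPM in the R172H libraries (log2 fold change 1.00 ± 0.061 (SE), adjusted p = 4.6e-12) and Dusp4 at 17.9, 14.7 and 14.7 CPM in the KO libraries and 6.65, 5 and 5.35 CPM in the R172H libraries (log2 fold change -1.47 ± 0.12 (SE), adjusted p = 5.2e-10). In the Notch pathway 6 of 22 were higher (27.3%) and 3 lower (13.6%), or 5 lower without R172H replicate 2. The receptor Notch3 was at 13, 17.1 and 19.7 CPM in the KO libraries and 28.3, 47.6 and 34.8 CPM in the R172H libraries (log2 fold change 1.14 ± 0.18 (SE), adjusted p = 1.7e-05), while Notch1 (log2 fold change -0.63 ± 0.079 (SE), adjusted p = 9.3e-07) and its target Hes1 (log2 fold change -0.60 ± 0.066 (SE), adjusted p = 1.2e-07) fell. Among MYC, RAS feedback and growth genes, 8 of 32 were higher (25%) and 6 lower (18.8%), close to the shares of all genes. Rasgrf1, an exchange factor for RAS, fell from 1.57, 1.88 and 1.71 CPM to 0.116, 0.128 and 0.166 CPM (log2 fold change -3.67 ± 0.23 (SE), adjusted p = 7.4e-12).

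Of 34 collagen genes, 12 were higher (35.3%) and 6 lower (17.6%), against 20.2% and 20.5% of all genes, with a median of 0.10. Col6a1 and Col6a2, the chains of collagen VI, rose together: Col6a1 was at 635, 746 and 774 CPM in the KO libraries and 1165, 1372 and 1297 CPM in the R172H libraries (log2 fold change 0.83 ± 0.083 (SE), adjusted p = 2.6e-08) and Col6a2 had a log2 fold change of 0.76 (adjusted p = 1.9e-08). Col3a1 was at 2142, 2414 and 2614 CPM in the KO libraries and 1267, 1530 and 1531 CPM in the R172H libraries (log2 fold change -0.73 ± 0.081 (SE), adjusted p = 1.4e-07) and Col12a1 fell by a similar size (log2 fold change -0.75 ± 0.081 (SE), adjusted p = 8.9e-08). In f1, Col3a1 rose (log2 fold change 2.12, difference -2.85, adjusted p = 5.2e-16). Fn1, which encodes fibronectin, was at 12973 ± 585 CPM in KO and 12055 ± 477 CPM in R172H (log2 fold change -0.11 ± 0.054 (SE), adjusted p = 0.13).

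Laminins, proteoglycans and matricellular genes were split, with 16 of 52 higher and 21 lower; the number higher was 9 without R172H replicate 2 and 10 without KO replicate 1. Lama1, a laminin of embryonic basement membranes, was at 3.89, 4.87 and 5.9 CPM in the KO libraries and 0.3, 0.307 and 0.255 CPM in the R172H libraries (log2 fold change -4.08 ± 0.20 (SE), adjusted p = 7.6e-14). Acan, the cartilage and perineuronal net proteoglycan aggrecan, was at 6.59, 7.36 and 6.83 CPM in the KO libraries and 25.4, 23.8 and 23.2 CPM in the R172H libraries (log2 fold change 1.80 ± 0.14 (SE), adjusted p = 6.4e-10). Of 27 integrins, 11 were higher (40.7%) and 7 lower (25.9%), against 20.2% and 20.5% of all genes, with 7 higher without R172H replicate 3 or KO replicate 1. The collagen receptor gene Itga11 was at 51.3, 67.7 and 75 CPM in the KO libraries and 96.7, 155 and 131 CPM in the R172H libraries (log2 fold change 0.98 ± 0.15 (SE), adjusted p = 1e-05), and the laminin receptor gene Itga7 was at 20.8, 22.4 and 24.6 CPM in the KO libraries and 7.01, 9.26 and 8.36 CPM in the R172H libraries (log2 fold change -1.47 ± 0.11 (SE), adjusted p = 1.6e-10). Matrix proteases and inhibitors numbered 11 higher and 12 lower of 36, with 7 higher without KO replicate 1. Adamts9 was at 2.91, 3.14 and 3.22 CPM in the KO libraries and 1.04, 1.4 and 1.07 CPM in the R172H libraries (log2 fold change -1.42 ± 0.13 (SE), adjusted p = 1e-08).

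Of 30 cadherins and protocadherins, 7 were higher and 13 lower, with a median of -0.21. Cdh13, a cadherin anchored by a lipid, was at 7.37, 8.7 and 9.28 CPM in the KO libraries and 0.697, 0.448 and 0.331 CPM in the R172H libraries (log2 fold change -4.06 ± 0.16 (SE), adjusted p = 2.4e-15). Pcdh10 was at 1.55, 1.22 and 1.5 CPM in the KO libraries and 0.107, 0.115 and 0.153 CPM in the R172H libraries (log2 fold change -3.50 ± 0.41 (SE), adjusted p = 3.8e-07). Axon guidance genes were 22 higher (37.3%) and 15 lower (25.4%) of 59, against 20.2% and 20.5% of all genes, yet the largest changes were falls. Sema6d, a membrane semaphorin, was at 2.24, 2.14 and 2.35 CPM in the KO libraries and 0.475, 0.5 and 0.535 CPM in the R172H libraries (log2 fold change -2.16 ± 0.20 (SE), adjusted p = 5.3e-09), and Unc5a, a netrin receptor, was at 1.63, 1.86 and 1.75 CPM in the KO libraries and 0.252, 0.0769 and 0.242 CPM in the R172H libraries (log2 fold change -3.16 ± 0.33 (SE), adjusted p = 5.2e-08). Mesenchymal transition factors were 6 higher and 7 lower of 18. Prrx1, a mesenchymal homeobox factor, was at 137, 146 and 147 CPM in the KO libraries and 64.9, 70.6 and 66.2 CPM in the R172H libraries (log2 fold change -1.09 ± 0.067 (SE), adjusted p = 5.2e-12), and it rose in f1 (difference -2.37, adjusted p = 3.6e-16).

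Proliferation genes had small fold changes. Mki67, which marks dividing cells, was at 360.2, 334 and 328 CPM in the KO libraries and 415, 325 and 344 CPM in the R172H libraries (log2 fold change 0.085 ± 0.14 (SE), adjusted p = 0.66). Of 47 mitosis genes, 1 was higher and 11 were lower, with a median of -0.11. These are 2.13% and 23.4%, against 20.2% and 20.5% of all genes. The count of mitosis genes that were lower was 5, 7 and 6 without R172H replicate 2, R172H replicate 3 and KO replicate 1, and the gene that was higher was lost without any 1 m1 library other than R172H replicate 2. The number lower was 18 when only the lines compared were fitted. Of 51 DNA replication genes, 8 were higher (15.7%) and 14 lower (27.5%), with 5, 9 and 7 lower without the same 3 libraries. Rrm2, a subunit of ribonucleotide reductase, was at 144, 119 and 116 CPM in the KO libraries and 107, 83.8 and 101 CPM in the R172H libraries (log2 fold change -0.38 ± 0.11 (SE), adjusted p = 0.008), and the call was lost without R172H replicate 2 or KO replicate 1. The fall was larger in f1 (difference 1.06, adjusted p = 3.6e-06). The cell cycle entry list had 11 of 28 higher (39.3%) and 3 lower (10.7%), or 1 lower without R172H replicate 2 or KO replicate 1. Ccnd2, a D-type cyclin, was at 693, 677 and 722 CPM in the KO libraries and 955, 916 and 868 CPM in the R172H libraries (log2 fold change 0.39 ± 0.046 (SE), adjusted p = 4e-07), and Cdkn2a, which encodes p16 and p19Arf, was at 326 ± 13.5 CPM in KO and 342 ± 25.5 CPM in R172H (log2 fold change 0.07 ± 0.11 (SE), adjusted p = 0.65). Apoptosis genes were even, at 9 higher and 8 lower of 29, with 5 higher without KO replicate 1 and 4 lower without R172H replicate 2 or KO replicate 1.

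Immediate early genes showed opposite changes within a family. Egr1 was at 374, 351 and 346 CPM in the KO libraries and 634, 730.1 and 687 CPM in the R172H libraries (log2 fold change 0.94 ± 0.084 (SE), adjusted p = 4.6e-09) and Fos at 19.9, 20.6 and 20.3 CPM in the KO libraries and 37.4, 53 and 47 CPM in the R172H libraries (log2 fold change 1.17 ± 0.14 (SE), adjusted p = 6.8e-07), both factors that serum and growth factors induce. Egr3 was at 19.7, 18.1 and 18.5 CPM in the KO libraries and 8.29, 10.8 and 11 CPM in the R172H libraries (log2 fold change -0.90 ± 0.11 (SE), adjusted p = 1.2e-06). Over the AP-1 and immediate early list, 6 of 22 were higher and 9 lower. YAP and TEAD targets were 7 higher and 5 lower of 25 (28% and 20%, against 20.2% and 20.5% of all genes). Ccn1, a matricellular target, was at 1077, 895 and 908 CPM in the KO libraries and 1364, 1270 and 1487 CPM in the R172H libraries (log2 fold change 0.52 ± 0.079 (SE), adjusted p = 1.5e-05).

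Among metabolic lists, 14 of 29 NRF2 antioxidant genes were lower (48.3%) and 3 higher (10.3%), with a median of -0.15. The shares of all genes were 20.5% and 20.2%. Nqo1, a quinone reductase, was at 16, 17.6 and 16.8 CPM in the KO libraries and 10.5, 10.4 and 10.9 CPM in the R172H libraries (log2 fold change -0.66 ± 0.09 (SE), adjusted p = 2.7e-06), and Gsta4, a glutathione transferase, was at 4.68, 4.48 and 4.84 CPM in the KO libraries and 1.82, 1.73 and 2.46 CPM in the R172H libraries (log2 fold change -1.22 ± 0.13 (SE), adjusted p = 9.3e-08). Slc7a11, the cystine carrier also counted with the ATF4 genes, rose (log2 fold change 0.64 ± 0.079 (SE), adjusted p = 8.8e-07). Glycolysis and hypoxia genes were 7 higher (20%) and 13 lower (37.1%) of 35. Slc16a3, the lactate exporter MCT4, was at 138, 124 and 133 CPM in the KO libraries and 22.1, 18.8 and 21.7 CPM in the R172H libraries, a fall of 6.3-fold (log2 fold change -2.66 ± 0.098 (SE), adjusted p = 4.2e-16), and it also fell in f1, by less (log2 fold change -1.82; difference -0.83, adjusted p = 8.4e-06). Cholesterol genes were 4 higher (11.8%) and 10 lower (29.4%) of 34, with 2 higher without R172H replicate 2 or KO replicate 1. Scd1, a fatty acid desaturase, was at 235, 254 and 260.2 CPM in the KO libraries and 129.8, 144 and 145 CPM in the R172H libraries (log2 fold change -0.84 ± 0.06 (SE), adjusted p = 8.9e-11). Imprinted genes were 12 higher (35.3%) and 11 lower (32.4%) of 34. Ndn, which encodes the growth suppressor necdin, was at 6.49, 6.4 and 6.46 CPM in the KO libraries and 27.2, 26.6 and 28.4 CPM in the R172H libraries (log2 fold change 2.09 ± 0.11 (SE), adjusted p = 2.7e-13) with the opposite direction in f1 (difference 4.17, adjusted p = 1.8e-16).

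Markers of microglia, neurons, oligodendrocytes and endothelium were in the table only in part, whereas most mural and fibroblast markers were measured. Of the microglia markers, 4 of 16 were in the table, and 1 was called, as higher; 2 were called as higher without R172H replicate 1. Of the endothelial markers, 6 of 12 were in the table, 0 rose and 3 fell (1 rose without R172H replicate 1 or KO replicate 2), and the fall of Cdh5 is given above. The summed endothelial level was 217.1 to 238 CPM in KO and 160 to 186 CPM in R172H. Of the neuron markers, 6 of 16 were in the table, and Stmn2, a tubulin-binding protein of growing axons, was at 21.5, 26.4 and 24.1 CPM in the KO libraries and 3.76, 4.82 and 4.19 CPM in the R172H libraries (log2 fold change -2.50 ± 0.092 (SE), adjusted p = 4.2e-16). Map2, a dendritic protein, rose (log2 fold change 0.64 ± 0.089 (SE), adjusted p = 4.3e-06). The ependymal and choroid plexus list had 1 of 10 genes in the table, the cilia factor Foxj1 (log2 fold change -0.91 ± 0.20 (SE), adjusted p = 0.00087). Mural and fibroblast markers were 3 higher and 5 lower of 18, or 3 lower when only the lines compared were fitted. The 4 members called beyond an absolute log2 fold change of 1 all fell. These were Pdgfra, given above, and Rgs5, Lum and Des (log2 fold changes -1.27, -1.17 and -1.07, adjusted p = 0.00026, 0.047 and 0.0016). Acta2, smooth muscle actin, was at 2282, 2251 and 2173 CPM in the KO libraries and 3596, 3394 and 3369 CPM in the R172H libraries (log2 fold change 0.63 ± 0.061 (SE), adjusted p = 1.9e-08), and the summed level of this list was 20791 to 23724 CPM in KO and 23605 to 25194 CPM in R172H. Defining markers such as Cx3cr1 of microglia, Pecam1 of endothelium and Rbfox3 of neurons were not analysed here. The part of these markers in the other results was not tested.

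The Y-linked genes, which both lines of a male culture carry, did not pass the threshold in the edgeR fit, although Ddx3y and Uty did as lower with DESeq2, with limma and when only the lines compared were fitted. Ddx3y was at 63.3, 66.1 and 62.6 CPM in the KO libraries and 55.7, 58.6 and 55.7 CPM in the R172H libraries (log2 fold change -0.18 ± 0.079 (SE), adjusted p = 0.08), and Uty at 17.4, 18.1 and 18.6 CPM in the KO libraries and 15, 15.6 and 14.9 CPM in the R172H libraries (log2 fold change -0.25 ± 0.13 (SE), adjusted p = 0.14). Eif2s3y and Kdm5d had log2 fold changes of -0.054 and -0.085 (adjusted p = 0.67 and 0.53).

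The effect of R172H against KO was then compared between the m1 and f1 cultures, which share no library. In f1, 10060 genes (69.7%) were called, and 4498 were called in both cultures, or 76.6% of the m1 genes and 44.7% of the f1 genes. Of these shared genes, 1718 (38.2%) moved in opposite directions. The test of the difference itself called 8365 genes, or 58.0% of those tested, with 4281 (29.7%) higher and 4084 (28.3%) lower in m1 relative to f1. The 1718 opposite genes are 11.9% of all genes, and the difference passed the threshold for each of them. The median absolute log2 fold change of called genes was 0.35 in m1 and 0.56 in f1. Each culture was 1 pool of pups of 1 sex, so sex and culture cannot be told apart. Exons of Adamts9, Aldh1l1, Bcas1, Bmp4, Ccnd2, Cdkn1a, Cnp, Cxcl10, Ereg, Hoxa4, Igf2, Itga7, Ltbp2, Map2, Naalad2, Notch1, Notch3, Ostn, Pcdh10, Pdgfra, Shisa3, Spry1, Tap1, Unc5a and Wnt5a also overlap those of a gene on the other strand, so part of their reads could belong to it.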

How the data were processed

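RNA-seq counts of 24 libraries from 8 astrocyte lines, 3 per line, were used. The authors aligned reads with STAR 2.5.1a to the Ensembl release 76 primary assembly and counted uniquely aligned reads per gene with featureCounts. The deposited values are raw counts, whose strand of counting is not given in the sources used here. No per-sample column was left unmapped. Symbols and positions came from GENCODE on GRCm38 for 14350 of 14427 identifiers. Counts were TMM-scaled and tested with the quasi-likelihood test of edgeR 4.0.16 in R 4.3.3, with 1 mean per line over all libraries. The limit of 1 CPM in 2 libraries removed no gene, so the deposited counts held only genes above it. The paper states that ribosomal genes and genes with low counts were excluded. Shares of all genes are thus shares of this set. P-values were adjusted by Benjamini-Hochberg over all genes, with a threshold of 0.05. A gene at 3 counts or fewer in every library of a line was given a bound against 3 counts per library, which covers counting error only. Named genes were the p53 genes, the 12 largest rises and falls among genes with 10 or more counts in each library of the line with more (predicted and clone-named genes left out), up to 4 called members per list, genes of interest to the study, and the 4 largest opposite differences between cultures, with further list members given by their values. A few genes that these rules name are not reported here. The members and lists were chosen with earlier results of these data known. Alternatives used DESeq2 1.42.0, limma 3.58.1, other scalings and filters, a replicate block and each replicate left out. The fit was also run on simulated counts, in which few genes changed, only in the m1 R172H line, and replicates were independent. That setting is simpler than these data, and no outcome is given or relied on here. Reads overlapping genes on opposite strands cannot be separated.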

Additional observations from a re-analysis of the deposited data

Results flagged for a closer look

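Each result here was marked because the effect of R172H against KO differed between the m1 and f1 cultures by the interaction term of the edgeR fit. The difference passed the threshold for 8365 genes, and 1718 of these were called in opposite directions in the separate cultures.

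Among the named genes, the difference (m1 minus f1, log2), with no chromosome median subtracted, was -2.79 for Wnt5a on chromosome 14. In m1, Wnt5a was at 36.7, 32.5 and 34.9 CPM in the KO libraries and 18, 16.2 and 17.2 CPM in the R172H libraries. The difference was 3.32 for Myrf, 5.76 for Rbm46, 4.61 for Sim1 and 7.52 for Xlr3b, each of which was called higher in R172H in m1 and lower in f1. Ms4a4d had a difference of -16.71, with no count in m1 R172H and 4.35 CPM in f1 R172H. Pi15, a secreted protease inhibitor, had a difference of -14.03, at 1.37 CPM in m1 KO and 22.3 CPM in f1 R172H. Ebf3, a helix-loop-helix factor, had a difference of -14.83, at 29.1 CPM in f1 R172H, with 7, 3 and 21 counts in the m1 KO libraries and none in m1 R172H. AW551984 had a difference of -15.31, at 106 CPM in f1 R172H, and its m1 call was lost without R172H replicate 1 or 2, without KO replicate 2 or with limma. Xlr3b averaged 0.0279 CPM in f1 KO and had no count in f1 R172H. For Xlr3b, Ms4a4d, Pi15, Ebf3 and AW551984 at least 1 line had 0 to 3 counts in each library, so the fitted size depends on the prior count and is no bound. For Xlr3b the f1 direction also rests on very few counts, and for Ebf3 and AW551984 the m1 direction does. The 3 libraries of each line are too few for the search for single outlying samples.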

How the results depend on the processing

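Of 3184 values of genes under alternatives, 3091 kept their direction and their side of the threshold, 72 lost the threshold, 13 passed it anew and 8 changed sign. The changes of sign were in genes that were not called. With 1 library left out, Mdm4 ranged from -0.058 to 0.014, Gja1 from -0.14 to 0.026, Mki67 from -0.025 to 0.16 and S100b from -0.34 to 0.079; without replicate 1 of both lines, Gja1 was at 0.018 and S100b at 0.079. The gains were in Ddx3y, Uty, Fn1, Sox9 and Irf7. Requiring an absolute log2 fold change above 0.5 reduced the m1 count from 5872 to 1861 (768 higher and 1093 lower), and the count for the difference between cultures to 5218 (2381 higher); fewer genes can pass by construction. Leaving out 1 library gave 4781 to 5552 genes (2348 to 2816 higher, 2427 to 2736 lower), and 7778 to 8226 for the difference. Leaving out replicate 1 of both m1 lines, chosen after the data were seen because it stood further from the others, gave 4598.

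The replicate numbers were not taken as pairs in the main fit. The deviations of same-numbered libraries correlated at 0.245, 0.103 and 0.066 in m1, and at -0.087, -0.023 and -0.099 in f1. Any spread that same-numbered m1 libraries shared was therefore left in the main fit. With the replicate block the m1 count was 5689. When only the lines compared were fitted, the count was 5893 without the block and 7251 with it. The limma fit gave 7055 and DESeq2 6145. Of 1368 list counts under alternatives, 139 moved by over 1.5 times; those that leaving out 1 library moved are given in the text for the lists described. Depth limits genes at 3 counts or fewer, which is 0.0228 to 0.0384 CPM in the m1 libraries.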
